A study of Mus musculus with 8 samples.

Results

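The Adam, Adamts, Mmp and Timp families include metalloproteinases that cut cell-surface proteins and extracellular matrix, together with the inhibitors that hold these enzymes in check. They were followed here in 2 sorted epithelial populations of newborn mouse skin, hair germ and interfollicular epidermis, with and without a miR-200 transgene. Members were all gene symbols in the count files that begin with Adam, Adamts, Adamtsl, Mmp or Timp followed by a digit, which gave 84 of 23433 symbols. There were 33 Adam, 24 Adamts or Adamtsl, 23 Mmp and 4 Timp genes. The rule used no measured value.

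The transgenic mice carried pTRE2-200bcl, a doxycycline-responsive miR-200 construct, together with K14rtTA, a transactivator driven by the keratin 14 promoter, so the construct was switched on in keratin 14-positive cells. The 4 groups were hair germ of transgenic pups 4 and 6, hair germ of control pups 3 and 5, interfollicular epidermis (IFE) of transgenic pups 4 and 6, and IFE of control pups 3 and 5. Control pup 3 carried K14rtTA alone and control pup 5 carried pTRE2-200bcl alone, so the control pups differed in genotype. All pups were of mixed background, aged P0.5, and came from dams fed doxycycline chow, so the controls had the same diet exposure. Hair germ, the early epithelial bud of the follicle, was sorted from skin as K14RFP+, P-cadherin-high and α6 integrin-high cells. IFE, the epidermis between follicles, was sorted as the P-cadherin-low counterpart, and total RNA was made into stranded low-input libraries.

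Many, but not all, Adam proteins are membrane-anchored sheddases that release ligands, receptors and adhesion molecules from the cell surface. Adamts proteins are secreted enzymes with thrombospondin repeats that process procollagen and proteoglycans, and the Adamtsl proteins resemble them but lack the protease domain. Mmps, some secreted and some membrane-anchored, cut collagens, laminins and other matrix proteins, and Timps bind and block the catalytic site. In skin these enzymes are known for basement membrane turnover, follicle downgrowth, wound closure and growth factor release.

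The transgene is a miR-200 construct, and the miR-200 family falls into 2 seed groups. The mature sequences are printed because their seeds define the matches counted in the protease transcripts. They are from RefSeq on GRCm38.p6, written 5′ to 3′, with the seed (bases 2 to 8) in capitals.
miR-200a-3p: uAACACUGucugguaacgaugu
miR-141-3p: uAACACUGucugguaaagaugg
miR-200b-3p: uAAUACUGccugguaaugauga
miR-200c-3p: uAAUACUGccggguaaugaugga
miR-429-3p: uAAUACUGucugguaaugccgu
The first seed pairs with CAGTGTT in a transcript and the second with CAGTATT. The longest annotated 3′ UTR held CAGTGTT or CAGTATT in 18 of 44 tested members (40.9%), against 3853 of 12659 tested genes with a 3′ UTR (30.4%). The members' UTRs were longer, with a median of 1863 bases against 1214 over all those genes, and a longer UTR holds more letters to match. Sites are shown for the members with a match among the 22 named by rule, and Mmp12, named later outside that rule, also holds CAGTATT. Each line gives 30 bases of mRNA-strand sequence with the match in capitals.
Adam19: ttcatccatcccCAGTGTTccatgtgtcac
Adam9: aaagcattgcagCAGTGTTgttttgtttga
Adamts17: tggttgtcacccCAGTGTTgtgctaaacac
Adamts9: ggaaaaccctgaCAGTATTccccaactcca
Adamtsl1: aaaattggtggtCAGTGTTtgaatttttct
Mmp13: tgtgtcaagagaCAGTGTTaattaaactgg
Mmp15: ttactagttctcCAGTATTtttttttaaat

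Libraries held 7109871 to 14039583 counts in genes. A count of 0 allows up to 3 counts, equal to 0.199 to 0.522 CPM per library, and such limits cover counting error only. Levels are given as CPM, counts scaled to the library total after TMM normalisation, edgeR's correction for differences in library composition. The feature miR200primary stood at 526 to 798 CPM in the 4 transgenic libraries and at 0.176 to 3.83 CPM in the 4 control libraries. Keratinocyte markers were abundant in every library, and Cdh3, the P-cadherin gene of the sort, stood at 421 and 576 CPM in transgenic hair germ against 281 and 309 CPM in transgenic IFE. In control pups Cdh3 stood at 353 and 436 CPM in hair germ against 293 and 386 CPM in IFE, so within each of the 4 pups it was higher in hair germ. The 9 hair germ markers, Cdh3 among them, summed to 888 and 1294 CPM in transgenic hair germ against 552 and 606 CPM in transgenic IFE. In control pups these sums were 1013.5 and 1156 CPM against 612 and 934 CPM. Wnt10b lay the other way in pup 4 (44.8 against 68.25 CPM) and pup 5 (79.8 against 101.2 CPM), and Dkk4 in pup 3 (0 against 0.70 CPM). The ribosomal RNA precursor Rn45s took 29.0% of counts in IFE of transgenic pup 4 and 30.6% in IFE of control pup 3, and 3.56% to 13.0% elsewhere. Counts of Y-linked genes exceeded 4 only in the libraries of pup 4.

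Leukocyte markers (15 genes) summed to 3334 and 2560 CPM in transgenic IFE against 201 and 105 CPM in control IFE. In hair germ they summed to 372 and 225 CPM in transgenic pups against 127 and 55.5 CPM in controls. The adjusted p of edgeR's quasi-likelihood test was under 0.05 for 13 of 14 tested leukocyte genes in IFE and 6 in hair germ, all higher in transgenic pups, and the T cell gene Cd3e had 0 to 5 counts per library. Melanocyte markers (8 genes) summed to 133 and 176 CPM in transgenic hair germ against 31.7 and 30.4 CPM in control hair germ, and to 96.7 and 101 CPM in transgenic IFE against 24.0 and 18.9 CPM in control IFE. Of these 8 genes, 3 passed as higher in hair germ and 4 in IFE, and 0 as lower. Mitf alone held 54.1 and 43.2 CPM of the transgenic IFE sums. Tyr stood at 14.8 and 11.6 CPM in transgenic IFE against 18.6 and 12.8 CPM in control IFE. Keratinocyte markers (8 genes) summed to 15147 and 15403 CPM in transgenic IFE against 30345 and 32709 CPM in control IFE. Of these 8 genes 4 passed as lower, and Epcam lay the other way, at 137.2 and 145.5 CPM against 75.9 and 121.4 CPM. Fibroblast markers (10 genes) summed to 548 and 663 CPM in transgenic IFE against 1355 and 1400 CPM in control IFE. Postn alone held 408 and 489 CPM against 1156 and 988 CPM, and 1 of 6 tested fibroblast genes passed as lower. Differentiated epidermis markers (4 genes) summed to 2511 and 1687 CPM in transgenic IFE against 4313 and 1590 CPM in control IFE. They summed to 1191 and 957 CPM in transgenic hair germ against 1607 and 942 CPM in control hair germ. Control pup 3 was above control pup 5 in both tissues, Krt1 and Krt10 made up nearly all of these sums, and 0 genes passed between genotypes. The endothelial genes Emcn and Cldn5 were at 0 counts in all 8 libraries, and the fibroblast gene Dpt was at 0 in 7 of them. The part of these cell types in the results that follow was not tested. In sorted populations, fewer cells of a type and less RNA per cell cannot be told apart.

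**Figure D1:**
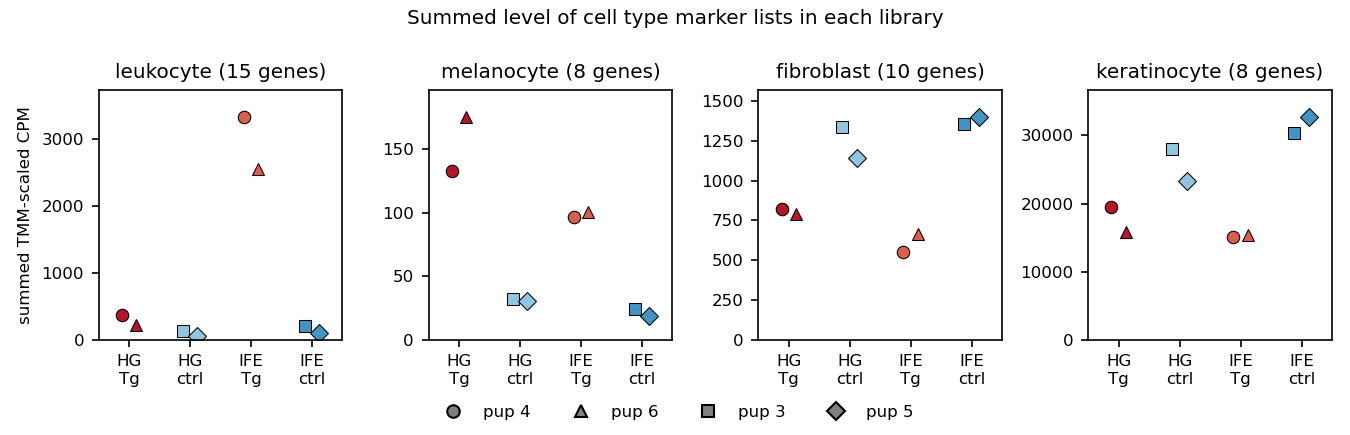
Summed TMM-scaled CPM of 4 marker lists (vertical axis) in each library, grouped as hair germ (HG) or IFE and transgenic (Tg) or control (ctrl), with a symbol for each pup. Leukocyte sums of 3334 and 2560 CPM in transgenic IFE stand above every other library, while keratinocyte sums are lower in transgenic than in control IFE.

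Of the 84 members, 44 passed the filter on low counts and were tested, 30 had counts in at least 1 library but did not pass, and 10 had 0 counts in all 8 libraries. The 10 at 0 were Adam1b, Adam6b, Adam7, Adam18, Adam20, Adam25, Adam26a, Adam34, Adam39 and Adamts16. Among the 30 that were counted but not tested, no count exceeded 35, 17 stayed under 10, and 11 had counts in a single library. They included 2 of the 4 inhibitors. Timp1, a secreted inhibitor that blocks most soluble Mmps, reached 6 counts at most, and Timp4 reached 1. The tested members comprised 12 Adam, 17 Adamts or Adamtsl, 13 Mmp and 2 Timp genes.

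Levels were set by a few genes. Per kilobase of annotated exon, averaged over the 8 libraries, Adamts1 was highest at 79.5 CPM, followed by Timp3 at 42.8, Mmp14 at 38.8, Adam10 at 37.9 and Adamts14 at 30.7. Adamts1 is a secreted enzyme that cuts aggrecan and versican, Timp3 is the matrix-bound inhibitor that also blocks Adams and Adamts enzymes, and Mmp14 is a membrane-anchored collagenase that activates pro-Mmp2. Adam10 sheds Notch and E-cadherin. Adamts1 led in all 4 groups, and in hair germ it stood at 84.1 ± 1.08 CPM per kilobase in transgenic pups and 79.7 ± 13.0 in controls (SD, n = 2 each). The next in control hair germ were Adamts14, Timp3, Mmp14 and Adam10, at 49.6 ± 23.6, 44.8 ± 2.82, 42.9 ± 4.84 and 38.6 ± 9.46 CPM per kilobase (SD, n = 2 each), and neighbours in this order did not differ beyond their spread. After these came Adam8 at 15.3, Adam9 at 13.7, Adam17 at 11.5, Adamts17 at 11.1 and Adamts9 at 9.59 CPM per kilobase over all libraries.

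Transgenic IFE had a different make-up. The same 5 leading genes held 50.7% and 52.1% of all member CPM in transgenic IFE of pups 4 and 6, against 64.5% to 71.8% in the other 6 libraries. Total member CPM spanned 1902 to 2365 over the 8 libraries, and the 2 transgenic IFE libraries lay inside that range at 2125 and 2049 CPM. Adam genes summed to 832 and 775 CPM in transgenic IFE against 395 and 483 CPM in control IFE. Adamts and Adamtsl genes summed to 646 and 612 CPM in transgenic IFE against 1123 and 809 CPM in control IFE. Mmp genes summed to 354 and 347 CPM in transgenic IFE against 251 and 294 CPM in control IFE, and Timp genes to 294 and 314 CPM against 448 and 315 CPM. No subfamily's sums overlapped between the groups, so the lack of overlap is not particular to the Adam and Adamts genes. Timp3 exceeded Timp2 per kilobase by 1.42 and 2.18 times in transgenic IFE, against 14.9 and 15.2 times in control IFE and 9.29 to 23.0 times in hair germ of both genotypes.

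**Figure D2:**
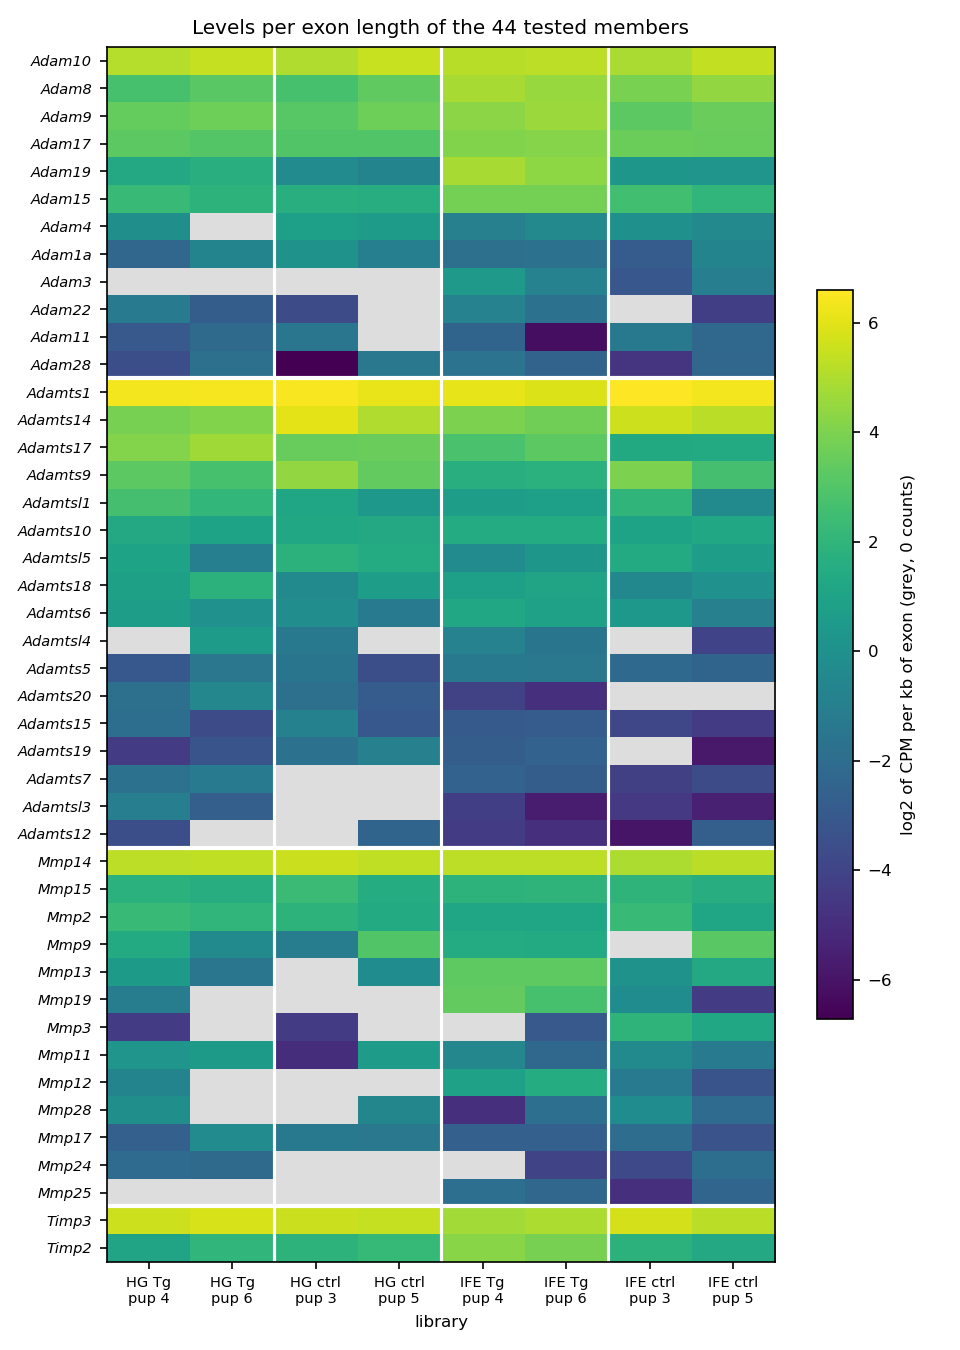
Level of the 44 tested members in each of the 8 libraries, as log2 of CPM per kilobase of exon (colour), with grey for 0 counts; rows are grouped by subfamily and ordered by mean level, and columns run from hair germ (HG) to IFE with transgenic (Tg) left of control (ctrl). In the rows of Adam19, Timp2, Mmp13, Mmp19 and Mmp12, the 2 transgenic IFE columns are brighter than the other columns of the same row.

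In IFE, 8 of 44 tested members passed the test between transgenic and control pups, 6 higher and 2 lower. Over all 14176 tested genes, 4.99% passed as higher and 1.35% as lower. The 6 that rose were the sheddases Adam19, Adam15 and Adam9, the secreted proteases Adamts17 and Mmp19 and the inhibitor Timp2, and the 2 that fell were Adamts14 and Adamts9. The median log2 fold change was 0.43 over the members and -0.01 over all genes. Tests were edgeR quasi-likelihood tests fitted on all genes and libraries, with Benjamini-Hochberg adjustment over all genes and a threshold of 0.05. At an unadjusted p under 0.05 there were 18 of 44 members, against 2456 of 14176 genes. With 2 pups a group, values without overlap are common and are not a test. In IFE those of Mmp14 (adjusted p = 0.752) and Adamts10 (adjusted p = 0.734) also did not overlap. The share of all genes without overlap was not computed. The 2 transgenic IFE libraries are also those with leukocyte marker sums of 3334 and 2560 CPM, against 201 and 105 CPM in control IFE, and the part of leukocyte RNA in these calls was not tested. Of the 8 calls, Adam19, Adamts17 and Timp2 remained without transgenic pup 4, Adam19, Mmp19 and Timp2 without transgenic pup 6, and Adam19, Adamts14 and Adamts9 without control pup 5. Without control pup 3 there were 5 (Adam15, Adam19, Adamts17, Mmp19 and Timp2), and without the 2 libraries rich in Rn45s only Adam19 passed.

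Adam19, or meltrin beta, is a sheddase known for cutting neuregulin, and it lies on chromosome 11, 46055992 to 46147343, plus strand (GRCm38, as are all positions here). It stood at 209 and 146 CPM in transgenic IFE against 8.88 and 8.23 CPM in control IFE. Both transgenic values were above both control values, a log2 fold change of 4.38 (SE 0.33, adjusted p = 4.24e-05). The call held in all 11 alternatives computed for it, with adjusted p from 3.04e-32 to 0.00772. In hair germ Adam19 stood at 18.1 and 23.0 CPM in transgenic pups against 5.80 and 4.32 CPM in controls (2.03, SE 0.33, adjusted p = 0.0197). The transgenic effect was smaller in hair germ by 2.35 on the log2 scale (SE 0.45), a difference that did not pass (adjusted p = 0.0812).

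Among the other sheddases, Adam15, a disintegrin-bearing Adam that binds integrins (chromosome 3, 89338542 to 89349996, minus strand), stood at 85.4 and 87.6 CPM in transgenic IFE against 37.1 and 25.6 CPM in control IFE. Its transgenic values agreed closely and lay above both controls (1.48, SE 0.30, adjusted p = 0.0111). Adam9, a widely expressed sheddase (chromosome 8, 24949611 to 25016927, minus strand), stood at 79.5 and 99.5 CPM in transgenic IFE against 38.5 and 49.0 CPM in control IFE. Its adjusted p lay just under the threshold (1.03, SE 0.28, adjusted p = 0.0486). Adam17, the sheddase of TNF and of several EGF receptor ligands, stood at 121 and 129 CPM in transgenic IFE against 86.2 and 81.5 CPM in control IFE. That difference did not pass (0.58, SE 0.21, adjusted p = 0.169), and neither did that of Adam8, another sheddase, at 136 and 108 CPM against 71.4 and 100.2 CPM (0.50, SE 0.29, adjusted p = 0.443). Adam10 stood at 180 and 191 CPM in transgenic IFE against 146 and 206 CPM in control IFE. The control pups lay on either side of the transgenic pups, with a log2 fold change of 0.07 (SE 0.24).

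Adamts genes moved in both directions. Adamts17 is a secreted protease tied to fibrillin microfibrils, on chromosome 7, 66839735 to 67153171, plus strand. It stood at 53.5 and 74.5 CPM in transgenic IFE against 20.2 and 20.8 CPM in control IFE (1.65, SE 0.28, adjusted p = 0.0042). Adamts14, a procollagen N-proteinase that trims the amino end of fibrillar procollagens (chromosome 10, 61197112 to 61273438, minus strand), stood at 82.0 and 68.2 CPM against 252 and 195 CPM. It was lower in both transgenic pups than in either control (-1.57, SE 0.30, adjusted p = 0.00923). Adamts9, a secreted versican-cleaving enzyme (chromosome 6, 92772699 to 92943492, minus strand), stood at 47.3 and 51.8 CPM in transgenic IFE against 233 and 95.5 CPM in control IFE (-1.72, SE 0.41, adjusted p = 0.0297). The log2 fold change was -0.88 without control pup 3 and did not pass (adjusted p = 0.331). Its control pups differed more than its transgenic pups did, and they did so alike in both tissues: the ratio of pup 3 to pup 5 was 2.44 in IFE and 2.03 in hair germ. Adamts1, the most abundant member, stood at 362 and 319 CPM in transgenic IFE against 515 and 441 CPM in control IFE. It was lower in both transgenic pups, but the difference did not pass (-0.49, SE 0.20, adjusted p = 0.221).

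Mmp19, a secreted Mmp (chromosome 10, 128790910 to 128800824, plus strand), stood at 37.8 and 23.7 CPM in transgenic IFE against 2.96 and 0.17 CPM in control IFE. The transgenic pups were higher (4.70, SE 1.0, adjusted p = 0.0146), and the log2 fold change was 7.45 without control pup 3 and 3.35 without control pup 5. With DESeq2's Wald test Mmp19 did not pass in IFE (4.34, SE 2.51, adjusted p = 0.407). Mmp13, a collagenase, stood at 26.2 and 25.9 CPM in transgenic IFE against 2.96 and 6.79 CPM in control IFE, but did not pass (2.31, SE 0.74, adjusted p = 0.098). Mmp12, the macrophage elastase, lies outside the rule for named genes and was chosen after its values were seen. It stood at 13.8 and 21.3 CPM in transgenic IFE against 3.13 and 0.76 CPM in control IFE (3.45, SE 1.0, adjusted p = 0.0715). Mmp3, the stromelysin that activates other Mmps, went the other way. It had 3 counts over both transgenic IFE libraries against 90 over both control libraries, a ratio of 0.0283 (95% counting interval 0.00573 to 0.0854), which did not pass (adjusted p = 0.0601). Mmp3, Mmp12 and Mmp13 did pass when the fit used the 4 IFE libraries alone, and Mmp12 and Mmp13 also with scaling by library size alone.

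Mmp14 and Mmp15 are both membrane-anchored. Mmp14 stood at 233 and 232 CPM in transgenic IFE against 189 and 220 CPM in control IFE (0.18, SE 0.19), and Mmp15 at 20.2 and 21 CPM against 20.9 and 16.3 CPM (0.17, SE 0.40). The gelatinase Mmp2 stood at 7.69 and 7.33 CPM in transgenic IFE against 16.2 and 7.30 CPM in control IFE (-0.58, SE 0.55). The gelatinase Mmp9 stood at 9.85 and 9.37 CPM in transgenic IFE, between control pup 3 at 0 and control pup 5 at 32.7 CPM. The same control pup was high in hair germ, at 28.3 CPM against 1.67 CPM in control pup 3, so Mmp9 varied more between control pups than between genotypes. None of these 4 genes passed in IFE.

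Of the inhibitors, Timp2 rose while Timp3 did not pass. Timp2 blocks secreted Mmps and also joins Mmp14 in the activation of pro-Mmp2, and it lies on chromosome 11, 118301069 to 118355740, minus strand. It stood at 73.9 and 56.5 CPM in transgenic IFE against 13.9 and 9.59 CPM in control IFE (2.50, SE 0.41, adjusted p = 0.00325). Timp3 stood at 219 and 257 CPM in transgenic IFE against 434 and 305 CPM in control IFE, lower in both transgenic pups (-0.63, SE 0.22, adjusted p = 0.132). In hair germ Timp2 stood at 8.10 and 16.4 CPM in transgenic pups against 14.8 and 17.9 CPM in controls, with overlap (-0.45, SE 0.41). The transgenic effect on Timp2 was lower in hair germ than in IFE by 2.95 on the log2 scale (SE 0.58), which did not pass (adjusted p = 0.0821).

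**Figure D3:**
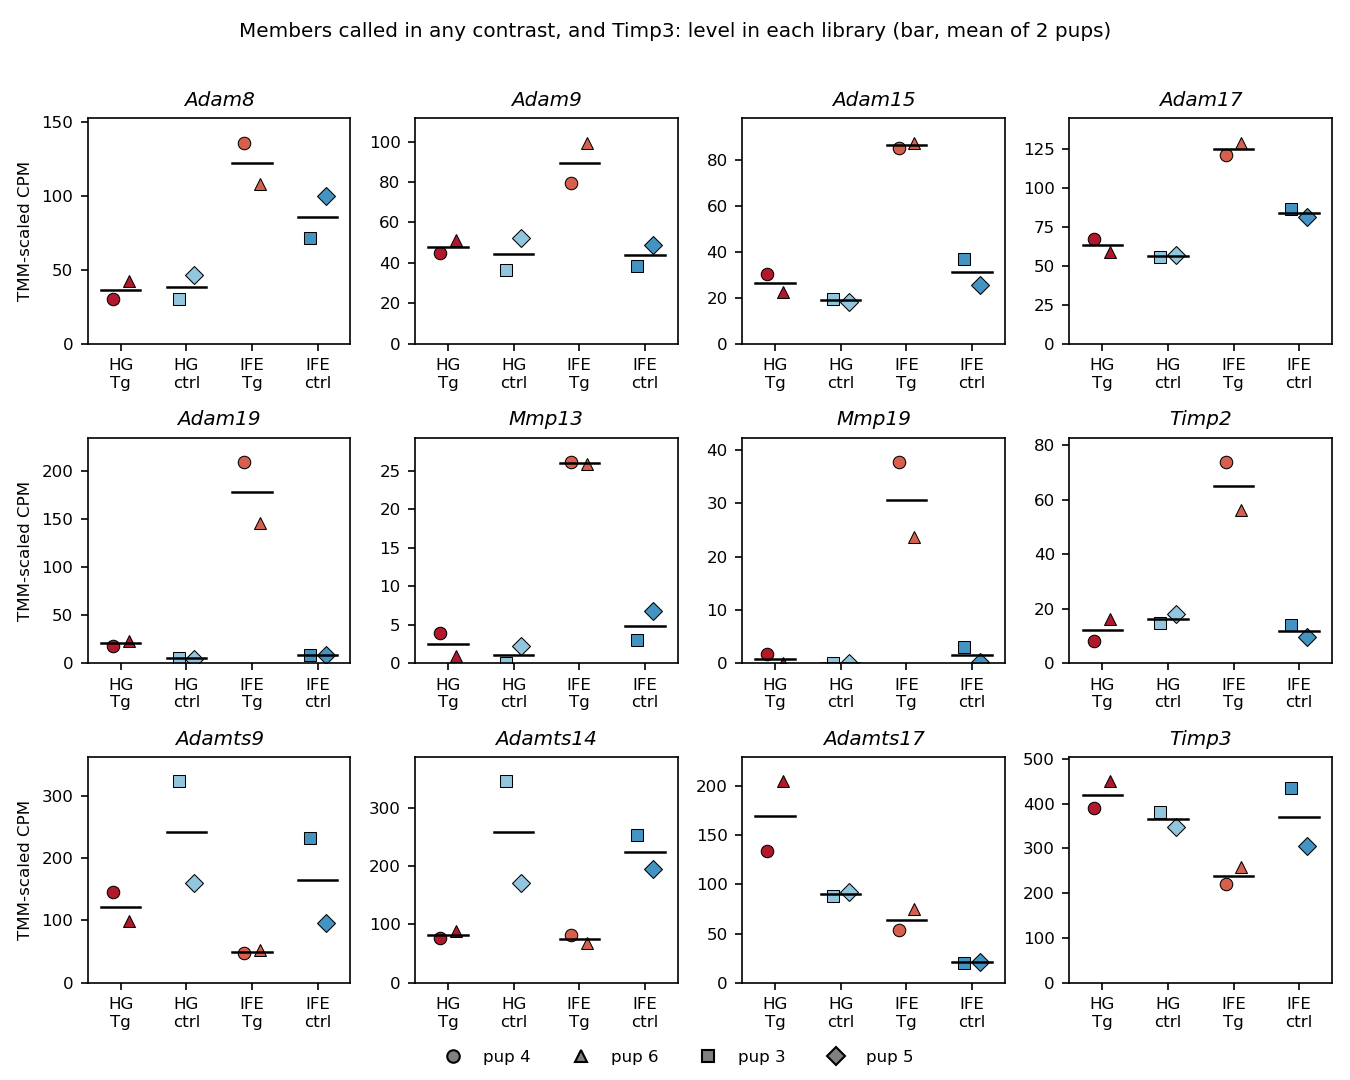
TMM-scaled CPM (vertical axis, starting at 0) of the 11 members called in any contrast and of Timp3, in each library, grouped as hair germ (HG) or IFE and transgenic (Tg) or control (ctrl); each symbol is a pup and each bar the mean of 2 pups. Adam19 at 209 and 146 CPM and Timp2 at 73.9 and 56.5 CPM stand out in transgenic IFE, and Adamts14 is lower in transgenic than in control pups of both tissues.

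In hair germ, only 2 of the 44 tested members passed between transgenic and control pups, Adam19 higher and Adamts14 lower. Over all genes 0.762% passed as higher and 0.19% as lower, and 12 of 44 members had an unadjusted p under 0.05, against 2426 of 14176 genes. Adamts14 stood at 75.7 and 88.5 CPM in transgenic hair germ against 345 and 171 CPM in control hair germ (-1.65, SE 0.30, adjusted p = 0.0314). Control pup 3 exceeded control pup 5 by a ratio of 2.01, and both exceeded the transgenic pups. Neither call remained when either transgenic hair germ library was left out, only Adam19 remained without control pup 3, and neither passed when the fit used the 4 hair germ libraries alone. Adam19 had log2 fold changes of 1.82 to 2.20 and Adamts14 of -2.08 to -1.11 when single libraries were left out.

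Several Adamts genes differed between the hair germ groups without passing. Adamts17 stood at 134 and 205 CPM in transgenic hair germ against 88.2 and 92.3 CPM in controls (0.91, SE 0.26, adjusted p = 0.115). Adamtsl1, or punctin, a matrix glycoprotein, stood at 81.8 and 55.7 CPM in transgenic hair germ against 28.5 and 16.6 CPM in controls (1.62, SE 0.56, adjusted p = 0.171). In both genes the transgenic pups were above the controls. In control IFE, Adamtsl1 differed between pup 3 and pup 5 by a ratio of 5.11. Adamts7, which cuts cartilage oligomeric matrix protein, had 43 counts over the transgenic hair germ libraries against 0 in controls (adjusted p = 0.0938). With the control group set to 3 counts in all it was 19.3-fold higher, and the 95% counting interval started at 15.0-fold. Adamts19 had 20 counts in transgenic hair germ against 162 in controls (ratio 0.166, adjusted p = 0.166), and 47 counts in transgenic IFE against 3 in control IFE (ratio 13.3, 95% counting interval 4.28 to 66.8, adjusted p = 0.233).

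Most other abundant members were close between the hair germ groups. Adamts1 stood at 442 and 450 CPM in transgenic hair germ against 471 and 374 CPM in controls, Timp3 at 390 and 450 CPM against 381 and 349 CPM, and Mmp14 at 230 and 236 CPM against 276 and 235 CPM. Adam10 stood at 173 and 213 CPM in transgenic hair germ against 157 and 222 CPM in controls. The log2 fold changes of these 4 genes were 0.08, 0.20, -0.14 and 0.03, each smaller than its SE of 0.19 to 0.24.

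**Figure D4:**
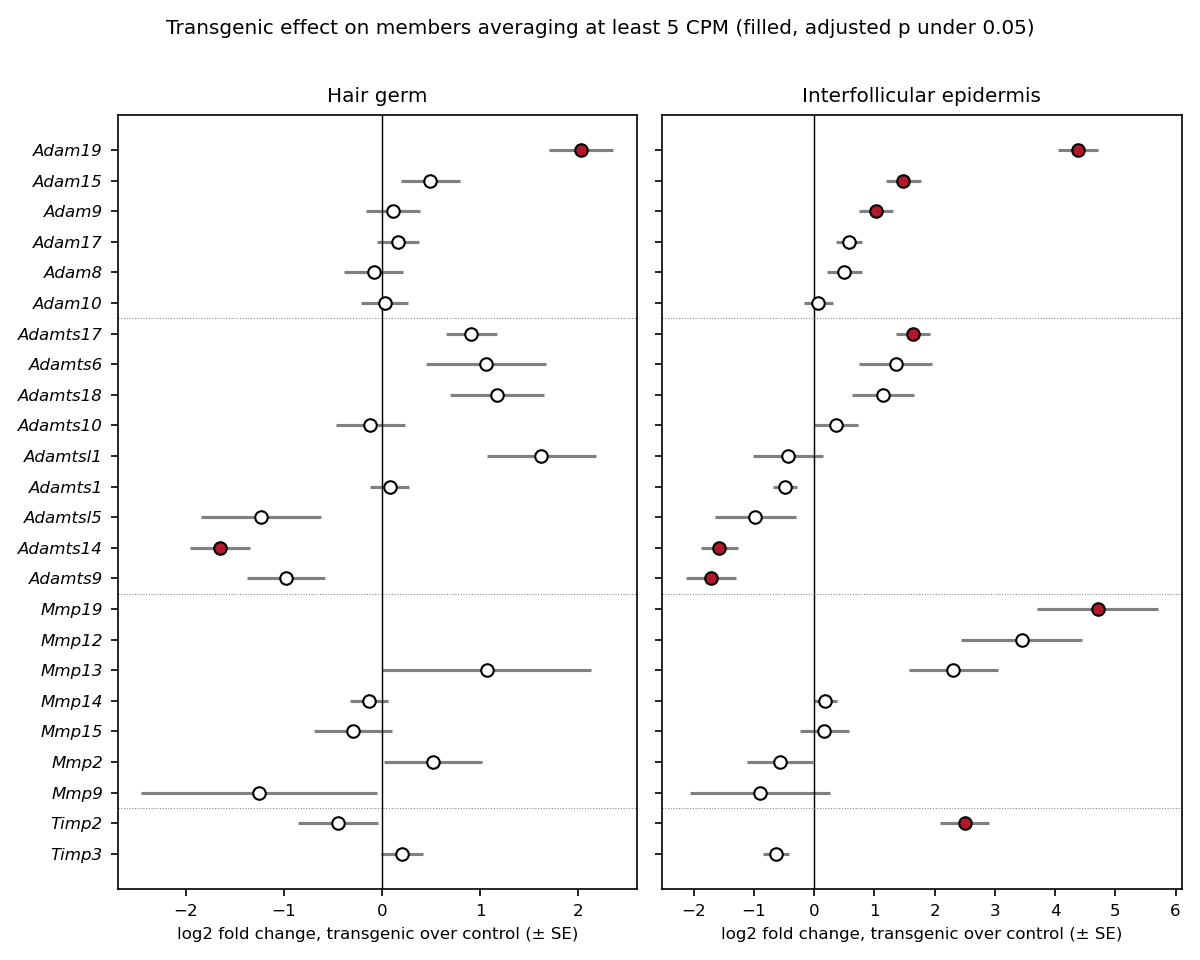
Log2 fold change, transgenic over control, with SE bars, of the 24 members with a mean of at least 5 CPM, in hair germ (left) and IFE (right); filled points have an adjusted p under 0.05, and a point is left out where a group had 0 counts. Adam19 and Adamts14 are filled in both panels, with 4.38 and -1.57 in IFE, and Mmp19, Timp2, Adamts17, Adam15, Adam9 and Adamts9 are filled in IFE only.

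Whether the transgenic effect differed between the tissues was tested directly, and 0 of 44 members passed with edgeR, against 0.134% of all genes. There were 8 of 44 members with an unadjusted p under 0.05, against 1149 of 14176 genes, and DESeq2's Wald test called 2, Adam19 and Timp2. The genes that passed in IFE and not in hair germ are therefore not shown to respond differently in the 2 tissues.

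Hair germ was also set against IFE within each genotype. In transgenic pups 8 of 44 members passed, 1 higher and 7 lower in hair germ, where 0.875% of all genes passed as higher and 3.75% as lower. With the pup as a block, which uses that both tissues came from the same animal, 12 members passed, the same 8 plus Adam9 (lower) and Adamts9, Adamtsl1 and Timp3 (higher). The 7 that were lower without the block were Adam19 (-3.11, SE 0.30, adjusted p = 0.000585), Timp2 (-2.43, SE 0.40), Adam8 (-1.74, SE 0.30), Adam15 (-1.70, SE 0.30), Mmp19 (-4.98, SE 0.99), Adam17 (-0.99, SE 0.22) and Mmp13 (-3.30, SE 0.80). Mmp19 had 0 counts in hair germ of pup 6, and without hair germ of pup 4 its log2 value was -11.33 and that of Mmp13 -4.78, neither of which passed. With DESeq2's Wald test Mmp19 did not pass between these tissues (-5.20, SE 2.52, adjusted p = 0.254). Adam8 stood at 30.6 and 42.4 CPM in transgenic hair germ against 136 and 108 CPM in transgenic IFE. Adam17 stood at 67.4 and 58.7 CPM in transgenic hair germ against 121 and 129 CPM in transgenic IFE. Adamts17 was the gene that was higher, at 134 and 205 CPM in transgenic hair germ against 53.5 and 74.5 CPM in transgenic IFE (1.40, SE 0.26, adjusted p = 0.0108). This comparison shares its transgenic IFE libraries with the transgenic effect in IFE. Leukocyte marker sums were 372 and 225 CPM in transgenic hair germ against 3334 and 2560 CPM in transgenic IFE, and their part was not tested. Only Adam19 and Timp2 passed without hair germ of pup 6 or without IFE of pup 4, only Adam15, Adam19 and Adamts17 without hair germ of pup 4, and 6 passed without IFE of pup 6, a set without Adam17 and Mmp13. With both libraries of pup 4 left out none passed.

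In control pups 0 of 44 members passed between hair germ and IFE with edgeR, and 0.00705% of all genes did. At an unadjusted p under 0.05 there were 8 of 44 members, against 1200 of 14176 genes, and DESeq2's Wald test called 3, Adamts17 and Adamts19 higher and Mmp12 lower in hair germ. Adamts17 was nearest, at 88.2 and 92.3 CPM in control hair germ against 20.2 and 20.8 CPM in control IFE (2.14, SE 0.28, adjusted p = 0.0506), and it passed with the pup as a block. Its pups agreed closely in each tissue, and hair germ was higher in all 4 pups of the study. Adamts19 had 162 counts over control hair germ against 3 over control IFE, a ratio of 35.8 (95% counting interval 12 to 175), and Mmp3 had 1 count over control hair germ against 90 over control IFE (ratio 0.00737, 95% counting interval 0.000184 to 0.0421). Adam8 stood at 30.5 and 46.6 CPM in control hair germ against 71.4 and 100.2 CPM in control IFE, the same order as in transgenic pups (-1.16, SE 0.30, adjusted p = 0.395).

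Partner genes of these proteases were read in the same way, against 4.99% of all genes higher, 1.35% lower and a median log2 fold change of -0.01 in IFE. The partner lists were chosen with earlier results of these data known, so their counts and medians are a description and not a test. Leukocyte marker sums were 3334 and 2560 CPM in transgenic IFE against 201 and 105 CPM in control IFE, and their part in these calls was not tested. Among 18 listed Mmp regulators and docking partners, 15 were tested and 6 rose in transgenic IFE, with a median of 0.22. They included Lrp1, the endocytic receptor that clears Mmps and Timp complexes, at 1453 ± 332 CPM in transgenic IFE and 393 ± 55.5 CPM in control IFE (SD, n = 2 each; 1.89, SE 0.25, adjusted p = 0.000914). The others were the lysosomal proteases Ctsb (2.16), Ctsd (1.03) and Ctsl (0.96), Cd63 (1.14), a tetraspanin that binds Timp1, and the integrin gene Itgav (0.82). Of 7 tested plasminogen and serine protease activators 2 rose (median 0.30). Plau, the urokinase that makes plasmin, stood at 504 ± 89.2 CPM in transgenic IFE and 128 ± 30.05 CPM in control IFE (SD, n = 2 each; 1.97, SE 0.24, adjusted p = 0.00051). Hgf, a growth factor related to plasminogen, stood at 12.9 ± 1.18 CPM in transgenic IFE and had 0 counts in control IFE. The cystatin Cst3 was the only riser among 7 tested inhibitors outside the Timps (2.24, SE 0.31; list median 0.88). Furin, a convertase that removes the prodomain of many Adams and membrane Mmps, rose among 7 tested convertases (1.08, SE 0.26), and Rhbdf2, an iRhom that carries Adam17 to the cell surface, rose among 11 trafficking partners (1.16, SE 0.30). The medians of the convertase and trafficking lists were -0.10 and 0.05. A single call in a list of 7 or 11 tested genes, as also for Cst3, is too few to set against the share of all genes.

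Of 30 tested shed growth factors and receptors, 3 rose and 2 fell in transgenic IFE, with a median of -0.29, where 4.99% of all genes rose and 1.35% fell. Csf1, Csf1r and Cxcl16, which act on or in myeloid cells, rose by 2.93, 4.18 and 1.68 on the log2 scale, and Csf1r is also on the leukocyte marker list. Egfr, the receptor of the ligands shed by Adam17, fell to 110 ± 4.79 CPM in transgenic IFE, against 300 ± 28.2 CPM in control IFE (SD, n = 2 each; -1.44, SE 0.20, adjusted p = 0.00124). Dll1, a Notch ligand, fell by 1.23 (SE 0.28). Of 24 tested matrix substrates, 1 rose, near the share of all genes, and 3 fell, with a median of -0.45. The falls were in basement membrane zone genes that keratinocytes make, Col7a1 (-1.10, SE 0.24), Col17a1 (-0.95, SE 0.23) and Lamb3 (-0.83, SE 0.22), and the rise was in Nid2 (4.55, SE 0.84). Keratinocyte marker sums were also lower in transgenic IFE, 15147 and 15403 CPM against 30345 and 32709 CPM, and their part was not tested. In hair germ the matrix gene Thbs2 was the only partner called, at 72.3 ± 28.2 CPM in transgenic pups and 15.9 ± 5.93 CPM in controls (SD, n = 2 each; 2.17, SE 0.42, adjusted p = 0.0404). Of 16 tested AP-1, Ets and Runx factors known at Mmp promoters, Runx1 rose in IFE (1.30, SE 0.24, adjusted p = 0.00793), and of 12 tested other metzincins none passed in either tissue.

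The members' promoters were searched for the AP-1 motif TGANTCA, which reads the same on both strands, because AP-1 control of Mmp genes is textbook knowledge. RefSeq promoters, 250 bases before to 50 after a start site on GRCm38.p6, matched 53 member genes with 58 promoters. The motif was in 13 of the 58 (22.4%), against 7.81% of 32851 promoters. Of the 13, 8 belong to the Mmp cluster on chromosome 9 (Mmp1a, Mmp1b, Mmp3, Mmp7, Mmp10, Mmp12, Mmp13 and Mmp20), and 5 to Adam genes, among them Adam19. A PU.1-type Ets motif, GAGGAAGT on either strand, was in 4 of 58 (6.9%) against 3.2%, and the Zeb E-box CACCTG on either strand in 12 of 58 (20.7%) against 20.2%. Among promoters of tested members, AP-1 matches were in 4 of 31, so most matches were in genes with few or no counts here. A match describes letters in this window and is not evidence of binding.

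Promoters of Mmp13 and Mmp3 are shown because both hold the motif close to the start site, at -35 and -46, while their values in transgenic IFE lay in opposite directions from control IFE. That of Adam19 is shown because this gene had the smallest adjusted p of the members, and its AP-1 letters, at -131, overlap an E-box. Capitals mark the motifs, and in Adam19 the joined capitals hold CACCTG followed by TGAGTCA with shared letters.
Mmp13 (chr9:7272264-7272563, plus strand): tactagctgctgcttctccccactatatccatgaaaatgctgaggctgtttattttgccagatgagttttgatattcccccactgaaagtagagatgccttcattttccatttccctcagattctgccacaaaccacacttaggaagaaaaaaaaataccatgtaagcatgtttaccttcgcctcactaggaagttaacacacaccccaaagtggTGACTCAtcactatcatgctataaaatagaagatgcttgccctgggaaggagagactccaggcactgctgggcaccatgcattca
Mmp3 (chr9:7445572-7445871, plus strand): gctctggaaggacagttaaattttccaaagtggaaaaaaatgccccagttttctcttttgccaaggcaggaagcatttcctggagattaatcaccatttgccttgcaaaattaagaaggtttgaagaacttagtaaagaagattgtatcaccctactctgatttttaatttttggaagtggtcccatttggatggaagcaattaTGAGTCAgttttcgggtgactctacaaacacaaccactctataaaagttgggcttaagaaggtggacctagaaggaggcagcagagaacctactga
Adam19 (chr11:46055734-46056033, plus strand): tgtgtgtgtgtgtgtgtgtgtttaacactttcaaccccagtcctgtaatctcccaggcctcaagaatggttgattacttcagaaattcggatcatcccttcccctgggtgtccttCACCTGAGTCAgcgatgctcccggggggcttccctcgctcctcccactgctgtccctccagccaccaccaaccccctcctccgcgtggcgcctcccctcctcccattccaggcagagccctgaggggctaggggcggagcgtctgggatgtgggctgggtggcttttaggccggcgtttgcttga

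Returning to the seed matches printed above, the 18 tested members with a match had a median log2 fold change of 0.45 in IFE, with 3 called higher and 1 lower, and the 26 without had 0.43, with 3 called higher and 1 lower. Over all genes in IFE the medians were -0.12 with a match, where 180 of 3853 were called higher and 95 lower, and 0.03 without, where 493 of 8806 were called higher and 85 lower. In hair germ the members with a match had a median of 0.70 with 1 called higher, and those without had 0.05 with 1 called lower. Over all genes in hair germ the medians were -0.05 with a match, with 33 called higher and 16 lower, and 0.08 without, with 68 called higher and 9 lower. Adam19, Adam9 and Adamts17 hold CAGTGTT and were higher in transgenic IFE, Adamts9 holds CAGTATT and was lower, and Adamts14, lower in both tissues, holds neither in its 1366-base UTR. A seed match is a description of letters, and the medians over the tested members are given as a description.

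Counting can also bear on single genes, because the sources used here do not state the strand setting of the counting. Of the 22 members with values per library, 8 share exon bases with a gene on the opposite strand, and reads from these overlaps cannot be assigned to either gene with certainty. The shared part is 28.3% of exon bases in Mmp19, 21.3% in Timp3, which overlaps Syn3, 20.6% in Adam15, 12% in Adamts9 and 10.1% in Adam19. In Adam17, Adamts7 and Adam8 it is 4.35%, 1.94% and 0.99%.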

How the data were processed

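The authors deposited raw read counts per gene symbol for 8 RNA-seq libraries, 2 pups in each of 4 groups. TopHat, HTSeq and DESeq2, and the build mm10 (GRCm38), are named in the submitters' processing notes. The sources used here state no versions and no strand setting. Pups are separate animals per the labels, and the 5 summary lines of each count file were left out. A deposited normalised matrix was not used here.

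Counts were TMM-scaled, filtered with filterByExpr by group to 14176 of 23433 genes, and fitted in edgeR 4.0.16 (R 4.3.3, glmQLFit with legacy set to FALSE, glmQLFTest, two-sided) as 4 group means over all 8 libraries. P was adjusted by Benjamini-Hochberg within each of 5 contrasts. SE is the log2 fold change divided by the root of F. The common biological coefficient of variation was 0.4746. DESeq2 1.42.0 was an alternative, with other scalings, no filter, fewer libraries, single libraries left out and the pup as a block. The procedure was run on simulated data with known changes, where only the direction and size of effects had to be recovered. Those simulated libraries were drawn independently, without shared pups, and no limit was set on missed or false calls. Pup numbers mark the same animal in both tissues per the labels, and deviations of a pup from its group means correlated across genes at 0.0868 in transgenics and 0.117 in controls.

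Levels per length divide CPM by the union of GENCODE exons on GRCm38, in which all 84 symbols matched. Members with values per library (22) were those called in any contrast, the 3 smallest p in each contrast, the 5 highest mean CPM in each subfamily, and Adam10, Adam17, Mmp2, Mmp9 and Mmp14. Partner genes were named when called in a transgenic contrast. The members and all gene lists were chosen with earlier results of these data known.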

Additional observations from a re-analysis of the deposited data

How the results depend on the processing

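Counts of members called are over 44 tested members unless a filter changed the set. In hair germ, transgenic against control, the count was 2; it was 5 with DESeq2's Wald test, 0 with only the 4 libraries compared, 0 without pup 4, 0 without the 2 IFE libraries rich in Rn45s, and 0 to 2 with single libraries left out. In IFE the count was 8; it was 11 with only the 4 libraries compared, which added Mmp3, Mmp12 and Mmp13, 9 with library size alone, 7 with DESeq2, 2 without pup 4, 1 without the libraries rich in Rn45s, and 3 to 5 with single libraries left out. For hair germ against IFE in transgenic pups it was 8; it was 12 with only the 4 libraries compared, 9 with library size alone, 9 with DESeq2, 0 without pup 4, 1 without the libraries rich in Rn45s, and 2 to 6 with single libraries left out. In control pups it was 0; it was 1 with median-of-ratios size factors, 1 with library size alone, 1 without a filter, 3 with DESeq2, 1 with the pup as a replicate block, and 0 to 1 with single libraries left out. For the difference of the effects it was 0; it was 2 with library size alone, 1 without a filter, 2 with DESeq2, 0 with the replicate block, and 0 to 1 with single libraries left out. The cause of these changes was not tested, and each reduced fit also held fewer samples. The replicate block raised the transgenic tissue count to 12 and changed no other call than those named. Scaling by library size alone moved the median of all genes to 0.15 in IFE, to 0.20 between tissues of transgenic pups and to 0.26 between tissues of control pups, and the share of calls in IFE that were higher was 95.4% against 78.6% with TMM (867 higher and 42 lower against 707 and 192). The Adam19 call in IFE held in all 11 alternatives. Where a library was left out, the lone sample of its group was assumed to vary like the other groups. Of 298 values of single members under alternatives, 204 kept direction and side of the threshold, 80 lost the call, 14 gained one and none reversed. The 298 include members that were not called in the main fit, such as Mmp3 between tissues of control pups. The 204 therefore mix calls that held with members that stayed without a call, while all 80 losses fell on members called in the main fit. Depth limits members with few counts, such as Mmp3, Adamts7 and Adamts19.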
